A study of Mus musculus with 6 samples.

Results

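A set of 55 genes that encode the vacuolar proton pump (v-ATPase), the Ragulator and Rag proteins, lysosomal enzymes and membrane proteins, the MiT/TFE transcription factors and autophagy proteins was followed after depletion of the glycolytic enzyme aldolase A. Members were chosen by gene symbol with earlier results of these data known. Of the 55, 53 had a row among the 18001 genes of the deposited expression table. Map1lc3b and Atp6v0c were not analysed here. The data come from NIH/3T3 cells, an immortalized line of mouse fibroblasts, collected 48 h after transfection with siRNAs against Aldoa (siAldoa) or with non-targeting control siRNAs (siCtrl). Poly(A) RNA was sequenced from 3 replicates per group, which the study calls biological replicates, and the p-values measure only the spread between these 6 samples. Both groups were the same line in medium with 10% FCS, so a single line, a single time point and one siRNA treatment stand behind every value.

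Lysosomes digest material delivered by endocytosis and autophagy. Their hydrolases need the acid interior that the v-ATPase maintains, a pump whose V1 sector splits ATP at the cytosolic face while the V0 sector carries protons across the membrane. On the outer face of the organelle the Ragulator complex anchors the Rag GTPases, which recruit mTORC1 when nutrients are plentiful, and FLCN with its FNIP partners acts on RagC and RagD. Many lysosomal genes carry an E-box-like CLEAR element in their promoters, to which TFEB, TFE3 and MITF can bind. Aldolase itself has been described as a sensor of fructose-1,6-bisphosphate that acts together with the v-ATPase and Ragulator at the lysosome.

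The libraries held 3692341 to 3771129 reads, recovered from the deposited CPM (reads scaled to an effective library size), and 3 reads in a library corresponded to 0.786 to 0.822 CPM. Aldoa was at 522, 536 and 545 CPM in siCtrl and at 62.9, 69.2 and 72.0 CPM in siAldoa, 12.7% of the control (log2 fold change -2.96, SE 0.0519, limma adjusted p = 1.3e-21). Replicates 1 and 2 of each group lay closer to each other (a chi-square of their reads, divided by its degrees of freedom, of 1.12 in siCtrl and 1.11 in siAldoa) than to replicate 3 (1.97 to 3.03). Replicates 1 and 2 thus differed only slightly more than sampling noise gives, which does not show whether they were separate cultures. They were kept as separate replicates. With replicates 1 and 2 averaged, 34 of the 36 members called below were called again, a setting chosen after seeing the data. Of the 11 fibroblast markers looked for, 10 had a row, 4 were higher and 4 lower in siAldoa, and their summed level was 13110 to 13650 CPM in siCtrl and 10850 to 11530 CPM in siAldoa. Most of this sum was Col1a2 (mean 4949 CPM in siCtrl and 3635 CPM in siAldoa), Vim (3731 and 3200 CPM) and Col1a1 (3196 and 2546 CPM). These and S100a4 were called lower, while Fn1, Thy1, Pdgfra and Pdgfrb were called higher. Summed epithelial markers, 4 of 6 with a row, were at 18.6 to 19.7 CPM in siCtrl and 7.86 to 14.2 CPM in siAldoa, and 3 of 4 endothelial markers summed to 7.40 to 8.47 and 3.47 to 7.56 CPM. The part of these shifts in the results was not tested.

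Most of the lysosomal and v-ATPase genes were more abundant after Aldoa knockdown. Because members were chosen with earlier results known, the shares below describe the list and do not test it. With a limma adjusted p under 0.05, 35 of the 53 members were higher in siAldoa, 1 was lower and 17 did not pass the test, where 10.4% of all genes were called higher and 10.0% lower. The median log2 fold change over the members was 0.32, against -0.0023 over all genes, 20.4% of which were called in either direction, and 47 of the 53 had a log2 fold change above 0. In 38 members every siAldoa library was above every siCtrl library and in 1 member every siAldoa library was below, against 16.7% and 17.1% of all genes. Among genes with a mean of at least 10 CPM, in which calls are more frequent, 34 of 48 members were higher, where 15.9% of such genes were called higher. All 36 members called by limma were also called by edgeR (quasi-likelihood test) from recovered reads, and 29 of them by DESeq2. With replicate 1, 2 or 3 of both groups left out, 26, 24 and 19 of the 36 were called, and without a mean-variance trend in limma 23. Log2 fold changes are on the log2(CPM + 1) scale, which understates those of genes with few reads, and in bulk RNA a change in cell numbers of one kind and a change in RNA per cell cannot be told apart.

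**Figure D1:**
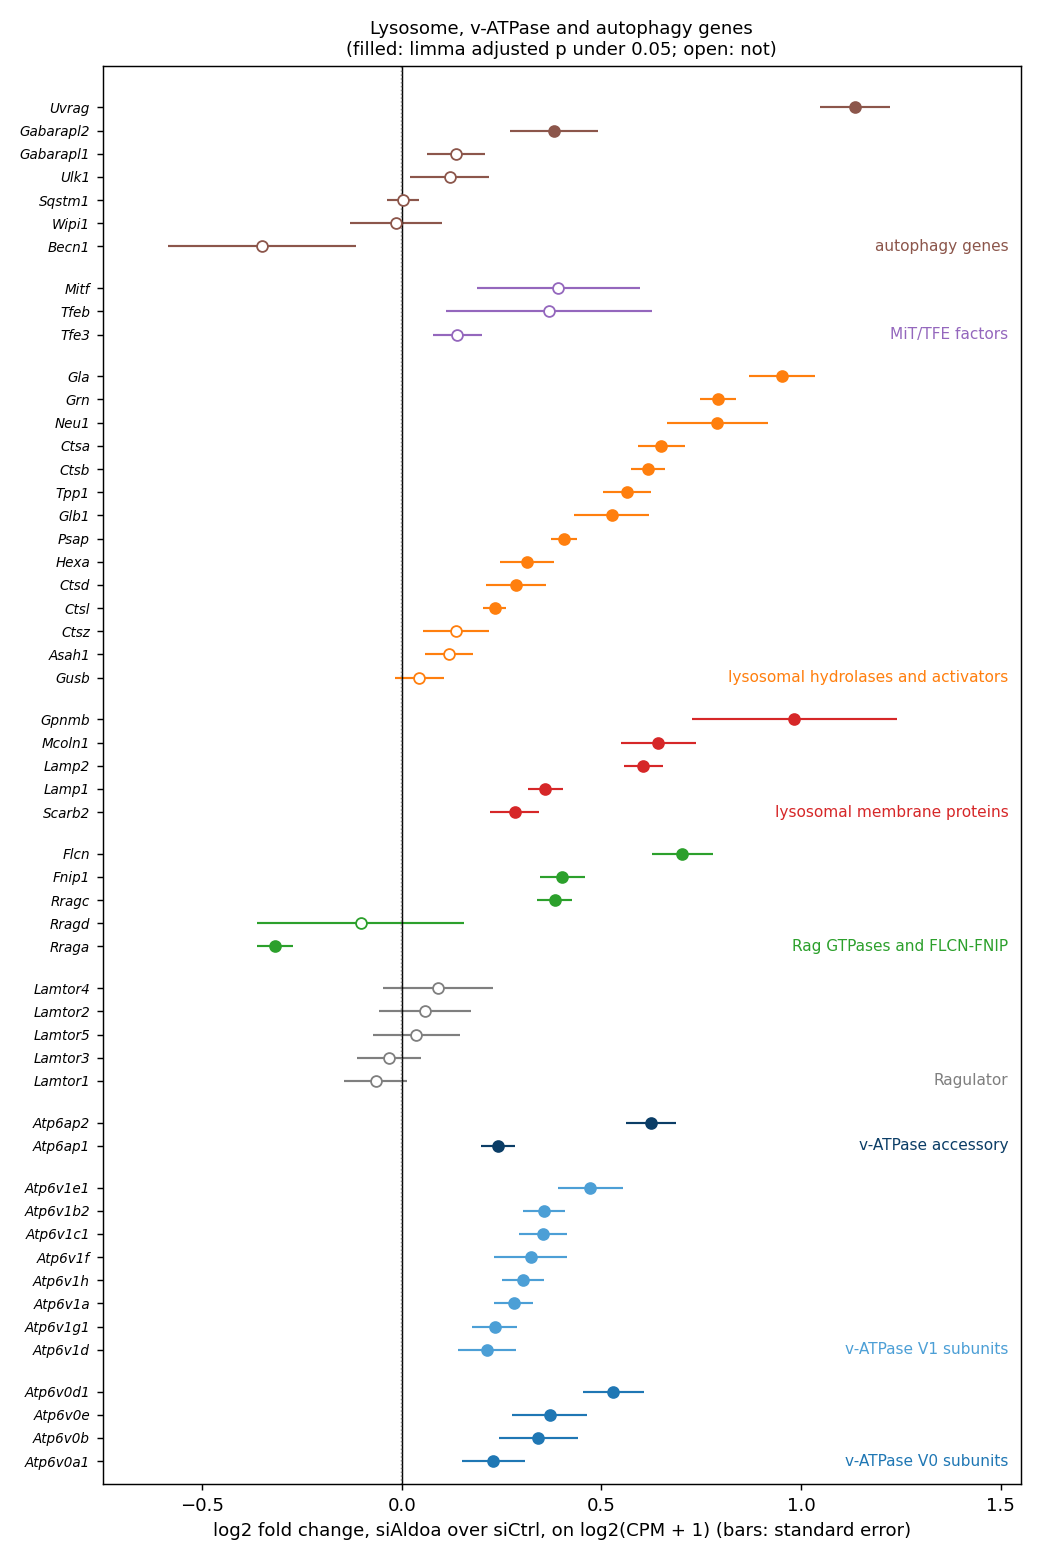
Log2 fold change (siAldoa over siCtrl, log2(CPM + 1) scale, x axis) of each of the 53 members, grouped by class, with bars of 1 SE. The v-ATPase and membrane protein genes all lie to the right of 0, the 5 Ragulator genes lie between -0.07 and 0.09, and Uvrag (1.14), Gpnmb (0.98) and Gla (0.95) lie farthest to the right.

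Class medians ran from 0.036 to 0.60 on the log2 scale, and differences between classes were not tested. All 14 v-ATPase genes (median log2 fold change 0.33) and all 5 lysosomal membrane protein genes (0.60) were called higher, as were 11 of 14 hydrolases and activators (0.47) and 3 of 5 genes of the Rag and FLCN-FNIP class (0.38). None of the 5 Ragulator genes (0.036) and none of the 3 MiT/TFE factors (0.37) was called by limma, and of the 7 autophagy genes 2 were called higher (0.12). In the individual libraries the median deviation of the v-ATPase genes from their siCtrl mean was -0.010 to 0.013 in siCtrl and 0.29 to 0.35 in siAldoa, on the log2 scale. For the hydrolases it was -0.015 to 0.021 in siCtrl and 0.43 to 0.49 in siAldoa, so for both classes the groups were well apart. For Ragulator it was -0.11 to 0.090 in siCtrl and -0.066 to 0.11 in siAldoa, and the groups overlapped.

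**Figure D2:**
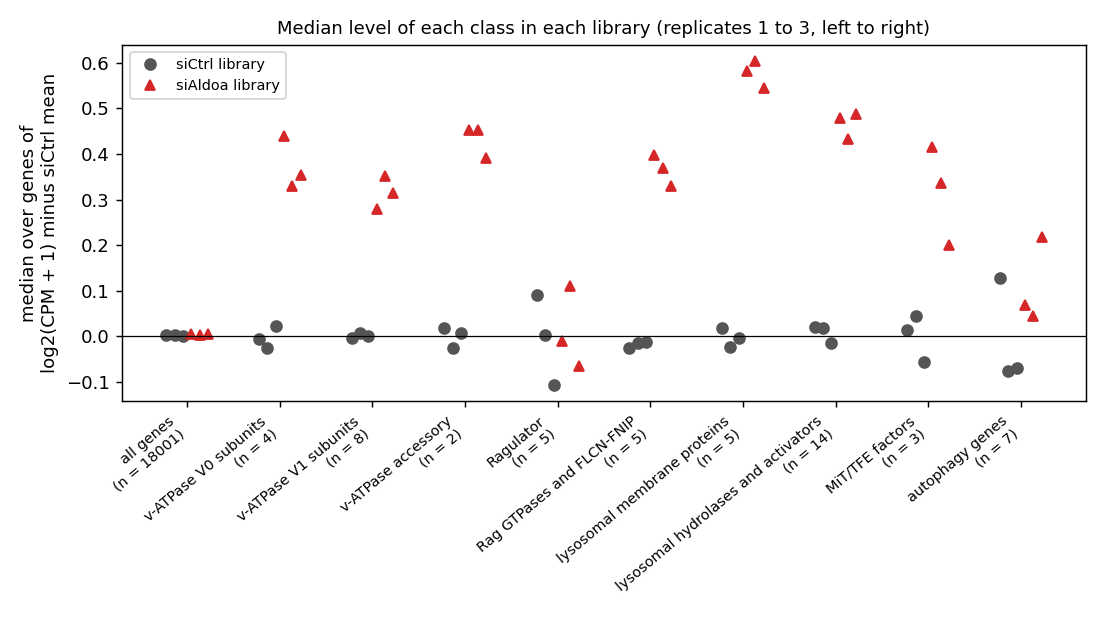
Median deviation of each class of members from its siCtrl mean (log2 scale, y axis) in each of the 6 libraries. The siAldoa libraries of the v-ATPase classes, the membrane proteins and the hydrolases lie above the siCtrl libraries, and those of Ragulator overlap with them.

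Promoter sequences are shown for 5 members. Lamp1, Mcoln1 and Gla rose and hold the E-box core CACGTG, Lamtor4 holds it and was not called, and Neu1 rose without it. Other E-box forms were not searched for. The sequences come from RefSeq (GRCm38.p6) and run 5′ to 3′ on the strand of the gene from 250 bases before the RefSeq start site up to the last base before the gene begins in either RefSeq or GENCODE. They cover chr8:13158911-13159160 on the plus strand for Lamp1, chr8:3500269-3500456 on the plus strand for Mcoln1, chrX:134601126-134601255 on the minus strand for Gla, chr5:138255232-138255481 on the plus strand for Lamtor4 and chr17:34931003-34931252 on the plus strand for Neu1. Capitals mark each CACGTG, the core of the CLEAR element, which reads the same on both strands. Lamp1 and Gla rose and hold 4 and 2 copies. Mcoln1 rose and holds 1 copy in the stretch shown, with another at -45, past the GENCODE start. Lamtor4 holds 2 copies and was not called, and Neu1 rose with 0 copies in this window.
Lamp1: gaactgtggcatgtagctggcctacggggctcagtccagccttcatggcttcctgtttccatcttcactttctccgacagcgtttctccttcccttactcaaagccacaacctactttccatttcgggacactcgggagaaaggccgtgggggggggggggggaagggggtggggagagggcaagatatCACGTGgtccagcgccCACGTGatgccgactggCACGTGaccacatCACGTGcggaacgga
Mcoln1: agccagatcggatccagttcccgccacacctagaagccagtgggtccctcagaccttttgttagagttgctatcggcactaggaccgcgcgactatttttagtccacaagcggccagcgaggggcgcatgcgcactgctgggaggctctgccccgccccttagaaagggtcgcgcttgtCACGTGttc
Gla: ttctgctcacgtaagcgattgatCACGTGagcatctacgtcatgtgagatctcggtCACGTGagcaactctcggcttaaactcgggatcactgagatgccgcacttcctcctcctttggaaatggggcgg
Lamtor4: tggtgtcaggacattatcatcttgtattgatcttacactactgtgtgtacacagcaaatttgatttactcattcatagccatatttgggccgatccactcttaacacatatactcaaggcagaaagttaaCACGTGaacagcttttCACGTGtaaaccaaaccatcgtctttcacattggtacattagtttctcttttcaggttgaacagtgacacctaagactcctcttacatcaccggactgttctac
Neu1: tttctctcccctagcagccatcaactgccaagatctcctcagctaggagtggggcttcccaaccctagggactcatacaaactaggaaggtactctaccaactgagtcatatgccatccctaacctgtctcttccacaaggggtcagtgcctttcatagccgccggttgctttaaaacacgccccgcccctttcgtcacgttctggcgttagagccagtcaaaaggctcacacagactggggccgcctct

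In windows from 250 bases before to 50 bases after the start site, CACGTG was found in 15 of the 45 members with a RefSeq window (33.3%), in 11% of the 11192 genes of the table with a window and in 8.09% of all 27025 RefSeq genes with one. The longer TCACGTG, or its reverse complement CACGTGA, contains the former motif and was found in 14 of the 45 (31.1%), against 6.40% and 4.29%. Of the 15 members with CACGTG, 13 were called higher and 2 (Lamtor1 and Lamtor4) were not called, with a median log2 fold change of 0.37. Of the 30 members without it, 17 were called higher, 1 lower and 12 were not called, with a median of 0.30. The difference between these medians was not tested, and a match is a description of the sequence and not a measured binding site. Asah1, Atp6v1b2, Atp6v1c1, Atp6v1g1, Atp6v1h, Becn1, Ctsb and Lamtor3 had no window. The windows of Atp6v0a1, Scarb2 and Wipi1, among those without CACGTG, lie inside the GENCODE gene. Those of Atp6v0e, Atp6v1a and Ctsl, which hold it, do so too. For these genes the stretch before the GENCODE start was not searched. The Ctsa window that holds its copies also lies inside the gene, and its other window holds none.

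**Figure D3:**
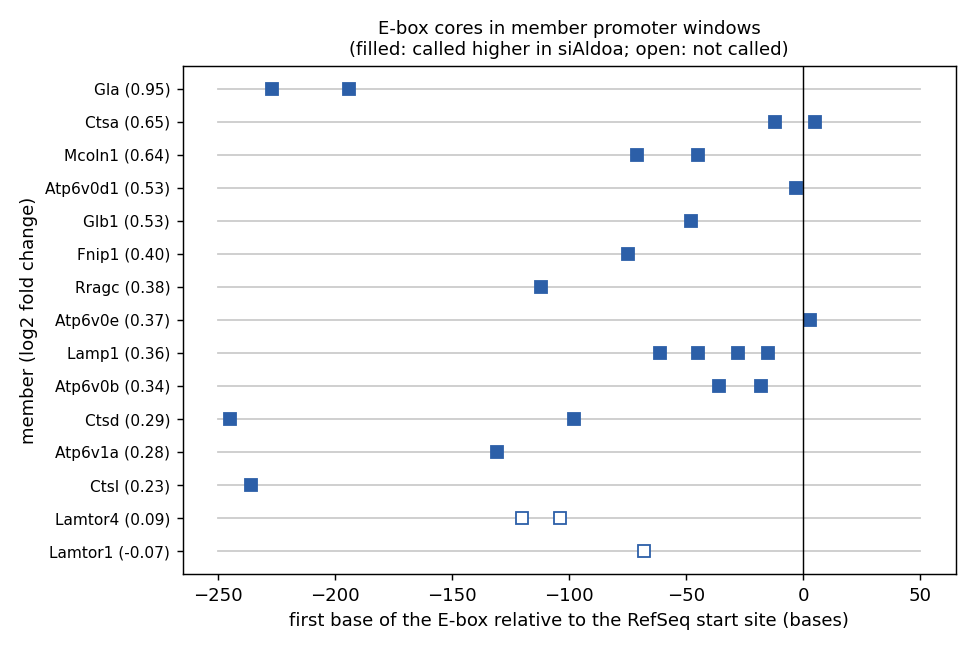
Position of each CACGTG (first base relative to the start site, x axis, in bases) in the 300-base promoter windows of the 15 members that hold it. Lamp1 has 4 copies between -61 and -15, Gla has 2 at -227 and -194, and Ctsl and Ctsd hold a copy near the far end of the window.

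All 14 v-ATPase genes of the member list with a row were called higher. Of the V0 subunits, which form the membrane sector, all 4 were higher in siAldoa, with log2 fold changes of 0.23 to 0.53. Values are given in the order of replicates 1, 2 and 3. Atp6v0d1, which encodes the d subunit that couples V0 to the rotor, was at 54.0, 46.8 and 47.9 CPM in siCtrl and 68.5, 72.4 and 74.6 CPM in siAldoa (log2 fold change 0.53, SE 0.0770, limma adjusted p = 1.7e-05), and the groups were widely separated. Atp6v0e, for a small membrane subunit, was at 32.6, 39.4 and 36.2 CPM in siCtrl and 51.0, 44.4 and 45.3 CPM in siAldoa (log2 fold change 0.37, SE 0.0939, limma adjusted p = 0.0058). Atp6v0b, for a proteolipid of the proton-carrying ring, was at 31.2, 27.6 and 30.4 CPM in siCtrl and 39.9, 35.0 and 39.0 CPM in siAldoa (log2 fold change 0.34, SE 0.0987, limma adjusted p = 0.015). In neither gene did the groups overlap. Atp6v0a1, for an isoform of the large a subunit that targets the pump to membranes, was at 51.5, 55.5 and 56.6 CPM in siCtrl and 60.2, 70.6 and 61.8 CPM in siAldoa (log2 fold change 0.23, SE 0.0788, limma adjusted p = 0.042), and its siAldoa replicates 1 and 3 were only slightly above siCtrl replicate 3. The call of Atp6v0a1 was lost with any 1 library left out and in 16 of 19 alternatives, with adjusted p from 0.029 to 0.27. The call of Atp6v0b was lost without siCtrl replicate 2, siAldoa replicate 1 or siAldoa replicate 3, and that of Atp6v0e without siCtrl replicate 1 or siAldoa replicate 1, with adjusted p up to 0.17 for both.

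Of the V1 subunits all 8 were higher, with log2 fold changes of 0.21 to 0.47. Atp6v1a, which encodes the catalytic A subunit, was at 220.5, 228 and 219 CPM in siCtrl and 265, 291 and 256 CPM in siAldoa (log2 fold change 0.28, SE 0.0485, limma adjusted p = 0.00015). Atp6v1b2, for the B subunit that alternates with A in the head, was at 121, 123 and 131 CPM in siCtrl and 158, 166 and 156 CPM in siAldoa (log2 fold change 0.36, SE 0.0537, limma adjusted p = 2.7e-05). Both rose, with every siAldoa library above every siCtrl library. Atp6v1e1, for a peripheral stalk subunit, was at 52.6, 54.2 and 45.0 CPM in siCtrl and 65.8, 70.3 and 75.1 CPM in siAldoa (log2 fold change 0.47, SE 0.0819, limma adjusted p = 0.00015), the largest fitted change in V1. Atp6v1c1, for the subunit that links the stalks to V0, was at 89.8, 93.8 and 86.8 CPM in siCtrl and 109.6, 117 and 119.7 CPM in siAldoa (log2 fold change 0.35, SE 0.0604, limma adjusted p = 0.00012). Atp6v1h, for a regulatory subunit, was at 124, 117 and 116 CPM in siCtrl and 144, 149 and 147 CPM in siAldoa (log2 fold change 0.30, SE 0.0531, limma adjusted p = 0.00016). In each of these genes the lowest siAldoa library lay above the highest siCtrl library. Atp6v1f, for a rotor subunit, was at 38.3, 33.4 and 37.3 CPM in siCtrl and 44.8, 43.3 and 49.0 CPM in siAldoa (log2 fold change 0.32, SE 0.0909, limma adjusted p = 0.013). Atp6v1g1, for the G subunit of the stalks, was at 116, 113 and 119 CPM in siCtrl and 131, 133 and 144 CPM in siAldoa (log2 fold change 0.23, SE 0.0561, limma adjusted p = 0.0039). Atp6v1d, for the central rotor shaft, was at 54.0, 59.4 and 57.9 CPM in siCtrl and 68.5, 63.6 and 66.8 CPM in siAldoa (log2 fold change 0.21, SE 0.0730, limma adjusted p = 0.041). The groups of these last genes did not overlap, but they stood closer together. The call of Atp6v1d was lost with any 1 library left out and in 15 of 19 alternatives (adjusted p from 0.031 to 0.28), and that of Atp6v1f without siCtrl replicate 2 or siAldoa replicate 3 (adjusted p up to 0.17 over all alternatives). Atp6v1g1 lost its call in 4 of 19 alternatives (adjusted p up to 0.11) and Atp6v1a in 3 (up to 0.082). Atp6v1c1, Atp6v1e1 and Atp6v1h lost theirs only without replicate 3 of both groups.

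The accessory proteins, which assist assembly of the pump, rose as well. Atp6ap2, known also as the prorenin receptor, was at 66.3, 66.2 and 66.1 CPM in siCtrl and 105, 106 and 97.1 CPM in siAldoa (log2 fold change 0.62, SE 0.0637, limma adjusted p = 1.2e-07), and its siCtrl libraries were almost identical. Atp6ap1 was at 255, 239.9 and 251 CPM in siCtrl and 296, 293 and 293 CPM in siAldoa (log2 fold change 0.24, SE 0.0423, limma adjusted p = 0.00018). Summed over the 14 v-ATPase genes, the level was 1296 to 1306 CPM in siCtrl and 1608 to 1656 CPM in siAldoa.

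Genes of Ragulator, the complex that binds the pump, did not pass the test. Lamtor1, for the lipid-anchored subunit that holds Ragulator on the membrane, was at 60.8, 52.5 and 58.2 CPM in siCtrl and 56.7, 52.4 and 54.5 CPM in siAldoa (log2 fold change -0.07, SE 0.0786, limma adjusted p = 0.63), and the groups overlapped. Lamtor2 to Lamtor5 encode the roadblock-fold subunits that Lamtor1 wraps, and their log2 fold changes were between -0.03 and 0.09, with SE of 0.0799 to 0.138 and limma adjusted p between 0.72 and 0.87. All of them overlapped between the groups. None of the 5 genes had an unadjusted p under 0.05, and none was called by edgeR, by DESeq2 or in any other alternative. Their median log2 fold change of 0.036 took either sign with libraries left out, from -0.026 to 0.044. Their summed level was 189.6 to 193.9 CPM in siCtrl and 184.3 to 195.9 CPM in siAldoa.

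Rraga and Rragc, which encode partner GTPases, moved in opposite directions. Rraga (ENSMUSG00000070934, chromosome 4, 86575668 to 86577285 on the plus strand, GRCm38) encodes RagA and was at 253, 254 and 266 CPM in siCtrl and 206, 212 and 201 CPM in siAldoa (log2 fold change -0.32, SE 0.0450, limma adjusted p = 1.2e-05), so every siAldoa library was below every siCtrl library and its mean fell to 80.2% of the control. It was the only member called lower, and it was called lower in all 19 alternatives. Rragc, for RagC, the partner of RagA in the active dimer, was at 203, 204 and 211 CPM in siCtrl and 271, 266 and 268 CPM in siAldoa (log2 fold change 0.38, SE 0.0433, limma adjusted p = 5.5e-07), with the groups far apart. The ratio of Rragc CPM to Rraga CPM was 0.803, 0.803 and 0.792 in siCtrl and 1.32, 1.25 and 1.33 in siAldoa, or 0.799 ± 0.00649 and 1.30 ± 0.0435 (mean ± SD, n = 3; exact two-sided permutation p = 0.1, the smallest that 3 against 3 libraries allow). Since the groups of both genes were already apart in opposite directions, the ratio had to separate too, and its p adds no evidence. The ratio describes the size of the unequal change of the transcripts and is not a ratio of molecules. Rragd, for RagD, was covered by 1 to 3 reads per library and gave no usable comparison.

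FLCN and FNIP1 form the GTPase-activating complex for RagC and RagD. Flcn (ENSMUSG00000032633, chromosome 11, 59791408 to 59810016 on the minus strand) was at 64.1, 56.6 and 53.4 CPM in siCtrl and 88.2, 95.1 and 102 CPM in siAldoa (log2 fold change 0.70, SE 0.0759, limma adjusted p = 2.8e-07), or 58.1 ± 5.47 CPM in siCtrl and 95.0 ± 6.67 CPM in siAldoa (mean ± SD, n = 3), and its lowest siAldoa value was well above its highest siCtrl value. Fnip1 was at 113, 123 and 116 CPM in siCtrl and 163, 156 and 148 CPM in siAldoa (log2 fold change 0.40, SE 0.0561, limma adjusted p = 9.9e-06). Both remained past the threshold in all 19 alternatives, as did Rragc.

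**Figure D4:**
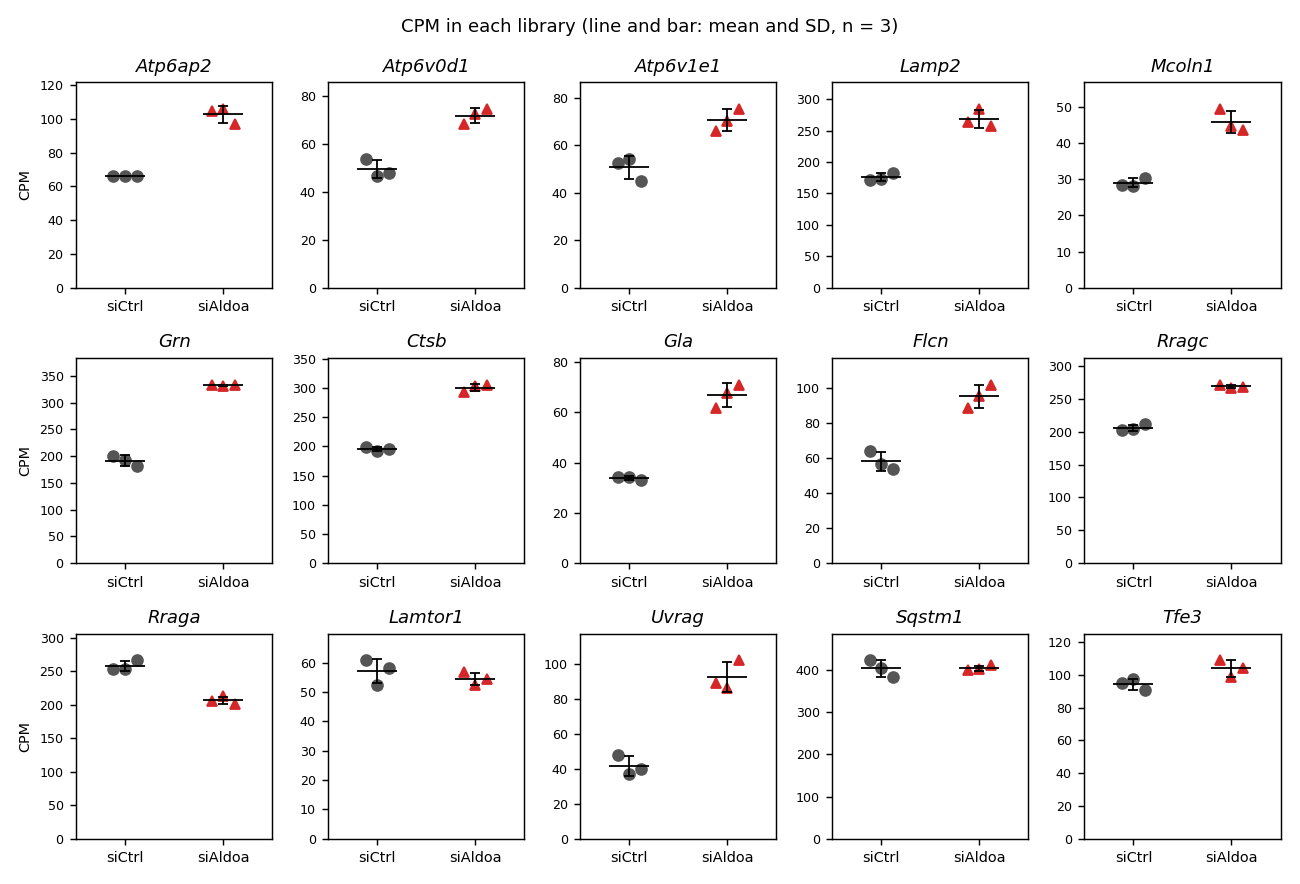
CPM (y axis, separate scale in each panel) of members of different roles in each siCtrl and siAldoa library, with 1 point per library, a line at the mean and a bar of 1 SD (n = 3). Grn, Gla, Flcn, Lamp2 and Uvrag are higher in each siAldoa library than in each siCtrl library, Rraga is lower in each, and Sqstm1 overlaps.

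All 5 genes for lysosomal membrane proteins rose. Lamp2, for a heavily glycosylated protein that lines the lysosomal membrane and takes part in chaperone-mediated autophagy, was at 172, 173 and 183 CPM in siCtrl and 264, 284 and 257 CPM in siAldoa (log2 fold change 0.60, SE 0.0486, limma adjusted p = 2.7e-09). Lamp1 (ENSMUSG00000031447, chromosome 8, 13159161 to 13175338 on the plus strand), its close relative, was at 214, 215 and 205 CPM in siCtrl and 277, 263 and 274 CPM in siAldoa (log2 fold change 0.36, SE 0.0441, limma adjusted p = 1.8e-06). Lamp2 gained more than Lamp1 on the log2 scale, and the difference was not tested. Lamp1 carries the 4 copies of CACGTG printed above and Lamp2 has no CACGTG in its window. Mcoln1, which encodes the calcium channel TRPML1, was at 28.5, 28.2 and 30.4 CPM in siCtrl and 49.4, 44.6 and 43.7 CPM in siAldoa (log2 fold change 0.64, SE 0.0932, limma adjusted p = 1.6e-05). Scarb2, for the receptor LIMP-2 that carries glucocerebrosidase to the lysosome, was at 87.4, 84.3 and 85.5 CPM in siCtrl and 101, 101 and 111 CPM in siAldoa (log2 fold change 0.28, SE 0.0613, limma adjusted p = 0.0015). The groups of both genes were separate, and the call of Scarb2 was lost in 3 of 19 alternatives (adjusted p up to 0.074). Gpnmb, for a glycoprotein found in lysosomes and melanosomes, was at 0.822, 0.547 and 0.529 CPM in siCtrl and 2.16, 2.41 and 2.09 CPM in siAldoa (log2 fold change 0.98, SE 0.256, limma adjusted p = 0.0072), which corresponds to only 2 to 9 reads per library. Its call was lost in DESeq2 and without replicate 1, 2 or 3 of both groups (adjusted p up to 0.087), and its fitted change ranged from 0.91 to 1.81 over the alternatives. Of 16 markers of macrophages and osteoclasts, which also make Gpnmb, 9 had a row and 1 (Cd14) was called higher. Their summed level was 21.6 to 26.8 CPM in siCtrl and 27.0 to 32.2 CPM in siAldoa, with Itgam and Aif1 at 0 in some libraries. Much of this sum was Cd14, at 14.5, 10.1 and 12.4 CPM in siCtrl and 16.2, 20.3 and 20.9 CPM in siAldoa. The other 8 were not called, and the median log2 fold change of the 9 was -0.062. The part of such cells in the Gpnmb values was not tested. Of 6 melanocyte markers, Pmel was the 1 with a row, at 0.794 to 0.822 CPM in siCtrl and 0.535 to 0.786 CPM in siAldoa.

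Of the 14 hydrolases and activators, 11 were called higher, with log2 fold changes of 0.04 to 0.95 over the class. Gla (ENSMUSG00000031266, chromosome X, 134588149 to 134601125 on the minus strand), for alpha-galactosidase A, was at 34.2, 34.5 and 33.1 CPM in siCtrl and 61.5, 67.6 and 71.0 CPM in siAldoa (log2 fold change 0.95, SE 0.0827, limma adjusted p = 9.7e-09), and its mean rose to 197% of the control. Neu1, for the lysosomal sialidase, whose promoter window holds no CACGTG, was at 14.5, 13.4 and 14.6 CPM in siCtrl and 24.6, 25.7 and 25.4 CPM in siAldoa (log2 fold change 0.79, SE 0.127, limma adjusted p = 6.2e-05). Ctsa, for the carboxypeptidase that protects NEU1, was at 93.9, 100.1 and 89.95 CPM in siCtrl and 153, 141 and 153 CPM in siAldoa (log2 fold change 0.65, SE 0.0589, limma adjusted p = 1.9e-08). In each of them the siAldoa libraries were clearly above siCtrl. Glb1, for beta-galactosidase, an enzyme found in a complex with cathepsin A and NEU1, was at 35.3, 29.3 and 29.9 CPM in siCtrl and 46.7, 44.4 and 45.8 CPM in siAldoa (log2 fold change 0.53, SE 0.0949, limma adjusted p = 0.00024). Ctsa, Neu1 and Glb1 therefore all rose, and in none of them did the groups overlap. Hexa, for a chain of beta-hexosaminidase, was at 72.0, 73.3 and 68.5 CPM in siCtrl and 83.4, 89.3 and 94.0 CPM in siAldoa (log2 fold change 0.31, SE 0.0670, limma adjusted p = 0.0013). Psap, for the precursor of the saposins, which present sphingolipids to such enzymes, was at 788, 750.1 and 762 CPM in siCtrl and 1011, 994 and 1043 CPM in siAldoa (log2 fold change 0.41, SE 0.0328, limma adjusted p = 2.9e-09). The calls of Glb1 and Hexa were lost in 2 and 3 of 19 alternatives (adjusted p up to 0.088 and 0.10). Gusb, for beta-glucuronidase, and Asah1, for acid ceramidase, had log2 fold changes of 0.04 and 0.12 (limma adjusted p = 0.70 and 0.19) and overlapped between the groups.

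Most peptidase genes rose, by different amounts. Ctsb, for cathepsin B, was at 199, 191 and 197 CPM in siCtrl and 294, 303 and 306 CPM in siAldoa (log2 fold change 0.62, SE 0.0433, limma adjusted p = 3.3e-10). Tpp1, for tripeptidyl peptidase, was at 109, 98.2 and 92.3 CPM in siCtrl and 148, 148 and 147 CPM in siAldoa (log2 fold change 0.56, SE 0.0605, limma adjusted p = 2.4e-07). For both the siAldoa libraries lay close together and far above siCtrl. Ctsl, for cathepsin L, was the member with the most reads (4008 to 4975 per library), at 1098, 1129.8 and 1108 CPM in siCtrl and 1318, 1299 and 1303 CPM in siAldoa (log2 fold change 0.23, SE 0.0291, limma adjusted p = 2.3e-06), a small change that exceeded the spread between replicates. Ctsd, for cathepsin D, was at 57.5, 52.2 and 54.0 CPM in siCtrl and 64.0, 71.4 and 64.9 CPM in siAldoa (log2 fold change 0.29, SE 0.0752, limma adjusted p = 0.008), and its call was lost without siAldoa replicate 2 and in 6 of 19 alternatives (adjusted p from 0.0047 to 0.17). Ctsz, for cathepsin Z, had a log2 fold change of 0.14 (limma adjusted p = 0.28), and the groups overlapped. Grn (ENSMUSG00000034708, chromosome 11, 102430315 to 102437048 on the plus strand) encodes progranulin, which is cut into granulins inside lysosomes. It was at 201, 193 and 181 CPM in siCtrl and 332, 332 and 334 CPM in siAldoa (log2 fold change 0.79, SE 0.0455, limma adjusted p = 1e-11), or 192 ± 10.1 CPM in siCtrl and 333 ± 0.835 CPM in siAldoa (mean ± SD, n = 3). Its siAldoa libraries differed by less than 1% of their mean, and its adjusted p was the lowest among the members.

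The transcription factors that bind CLEAR elements did not pass the test. Tfe3, the most abundant of them, was at 95.0, 97.1 and 90.5 CPM in siCtrl and 109, 98.6 and 104 CPM in siAldoa (log2 fold change 0.14, SE 0.0611, limma adjusted p = 0.12). Mitf was at 5.48, 6.02 and 6.61 CPM in siCtrl and 8.37, 9.35 and 7.07 CPM in siAldoa (log2 fold change 0.39, SE 0.205, limma adjusted p = 0.2). For these factors every siAldoa library was above every siCtrl library without reaching the threshold. Tfeb was at 6.85, 4.65 and 2.65 CPM in siCtrl and 6.48, 5.88 and 5.76 CPM in siAldoa (log2 fold change 0.37, SE 0.257, limma adjusted p = 0.37), and the groups overlapped. It was covered by 10 to 25 reads per library with a wide spread in siCtrl, and leaving out siCtrl replicate 3 alone, or replicate 3 of both groups, took the median log2 fold change of the class from 0.37 to 0.11. At an unadjusted p under 0.05 limma gave 1 of the 3 genes, and edgeR and DESeq2 called none. These are transcript levels and carry no information on where the proteins are in the cell.

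Of the autophagy genes, 2 of 7 rose. Uvrag (ENSMUSG00000035354, chromosome 7, 98885021 to 99141141 on the minus strand), for a subunit of the phosphatidylinositol 3-kinase complex that acts in autophagosome and endosome maturation, had the highest log2 fold change of all members, at 47.9, 37.2 and 39.7 CPM in siCtrl and 89.1, 86.1 and 102 CPM in siAldoa (log2 fold change 1.14, SE 0.0885, limma adjusted p = 1.6e-09) or 222% of the control. Its transcripts share a stretch of at least 200 bases at 90% identity or more with 68 other genes, so some of its reads are of uncertain origin. Becn1, for the Beclin 1 subunit of the same complex, was at 7.67, 6.57 and 8.995 CPM in siCtrl and 6.75, 3.74 and 7.59 CPM in siAldoa (log2 fold change -0.35, SE 0.236, limma adjusted p = 0.34), and the groups overlapped. An exon of Becn1 overlaps an exon of Cntd1 on the other strand, and the part of this in its low count was not tested. Sqstm1, for the receptor p62 that carries ubiquitinated cargo into autophagosomes, was at 423, 404 and 384 CPM in siCtrl and 399, 402 and 412 CPM in siAldoa (log2 fold change 0.0026, SE 0.0405, limma adjusted p = 0.98), with a mean of 404 CPM in siCtrl and 404 CPM in siAldoa. Gabarapl2, for a protein of the ATG8 family on autophagosome membranes, was at 36.4, 26.8 and 31.7 CPM in siCtrl and 40.5, 46.2 and 37.4 CPM in siAldoa (log2 fold change 0.38, SE 0.110, limma adjusted p = 0.015), with the groups close but separate. Its call was lost in 9 of 19 alternatives (adjusted p from 0.0067 to 0.36), among them those without siCtrl replicate 2, siCtrl replicate 3, siAldoa replicate 1 or siAldoa replicate 2. Gabarapl1, of the same family, Ulk1, for the kinase that starts autophagy, and Wipi1, a phosphoinositide-binding protein of early autophagosomes, had log2 fold changes of 0.14, 0.12 and -0.02 and did not pass the test. Without replicate 3 of both groups the median log2 fold change of the class went from 0.12 to -0.02.

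Levels of different members can be set side by side only per length, and were therefore divided by the summed exon length. Psap (279 CPM per kb in siCtrl), Ctsl (171 CPM per kb) and Rraga (159 CPM per kb) stood highest, followed by Sqstm1 at 120.4 and Atp6v1g1 at 102 CPM per kb. The lowest were Gpnmb at 0.0971 and Rragd at 0.122 CPM per kb. Within V1 the level in siCtrl ran from 12.2 CPM per kb (Atp6v1h) to 102 CPM per kb (Atp6v1g1), whose CPM were nearly equal (119 and 116) and whose summed exon lengths over all annotated isoforms were 9746 and 1135 bases. Summed exon length overstates the length of the transcript where a gene has many isoforms, which lowers its value per kb. In siAldoa Psap (370.2 CPM per kb) and Ctsl (201 CPM per kb) were again at the top, and Rraga (128 CPM per kb) lay only slightly above Sqstm1 (120.5 CPM per kb) and Atp6v1g1 (120.1 CPM per kb).

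Reads of some members may be shared with other genes. In 13 members an exon overlaps an exon of a gene on the other strand. Among them are Grn with Fam171a2, Ctsb with Fdft1, Lamp1 with Grtp1 and Becn1 with Cntd1. The library kit marks strand, but whether counting used it is not given in the sources used here. In 8 members, 1 of them also with such an overlap, a transcript has a near-identical stretch in a gene elsewhere, for example Atp6ap2 with Gm36448, and Mcoln1 with the repeated stretch of Uvrag. Of the 33 members with neither, 21 were called higher and 1 lower, and of the 20 with either, 14 were called higher.

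Lists of 155 further genes of the same pathways, also chosen with earlier results known, were looked up, and 138 had a row. Of these, 46 (33.3%) were called higher and 4 (2.90%) lower, where 10.4% of all genes were called higher and 10.0% lower, and their median log2 fold change was 0.19, against -0.0023 over all genes. Of 31 other genes for lysosomal membrane proteins 13 were higher, led by Ctns, for the cystine exporter (0.93 on the log2 scale), and Pqlc2, for an exporter of cationic amino acids (0.70). Of 36 other hydrolases and activators 15 were higher, among them Smpd1, for acid sphingomyelinase (0.68 on the log2 scale). Of 39 other autophagy genes 10 were higher and 1 lower, with Calcoco1 (0.68) and Atg4c (0.53) at the top and Wipi2 (-0.25) called lower. Of 25 other genes of nutrient sensing 7 (28%) were higher and 3 (12%) lower, the latter close to the share over all genes. The highest of the called genes were Gatsl2 (1.10), a paralogue of the arginine sensor CASTOR1, and Sesn1 (0.89), of the sestrin family. Mios, of the GATOR2 complex, and Nprl3, of GATOR1, were the lowest of the called genes (-0.42 each), and the groups overlapped for Nprl3. Of 6 other v-ATPase subunit genes, several of them isoforms used in specialised tissues, 1 was higher, Atp6v0a2 (0.40), and the remaining MiT/TFE factor, Tfec, was not called (0.19).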

How the data were processed

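Poly(A) RNA of NIH/3T3 cells was sequenced in 6 libraries, 3 per group, 48 h after siRNA transfection. Per the labels, reads were processed with bcl2fastq and aligned to mm10 with Bowtie2 (version 2.2.7). Per the methods, the authors subsampled reads to equal numbers and counted them per gene. The annotation and the use of strand in counting are not given in the sources used here. The deposited values are CPM of an effective library size. A second table holds the authors' own comparison (log2 fold changes and p-values) and was not used.

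Each CPM was divided by the smallest value above 0 of its library. All values (100%) came out as whole reads within a tolerance of 0.001, with totals of 3692341 to 3771129. The methods name a filter of 12 reads, and the table held 1834 genes with fewer. Reads carry no molecular identifiers, so precision from reads covers counting error only.

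The groups were compared over all 18001 genes by a two-sided limma test (version 3.58.1, R version 4.3.3) of log2(CPM + 1), whose variance prior followed a mean-variance trend. P-values were adjusted after Benjamini-Hochberg over all genes, with a threshold of 0.05. Class medians were described and not tested. Alternatives were a pseudocount of 0.1, a filter on low genes, quantile and TMM scaling, no trend, a replicate block, libraries left out, and, on the recovered reads, edgeR (version 4.0.16), which called 3786 genes against 3676 with limma, and DESeq2 (version 1.42.0). The tests were tried on simulated data. Genes were matched to GENCODE of GRCm38 (17932 of 18001 identifiers), and near-identical stretches were searched with blastn (version 2.17.0, at least 90% identity over 200 bases). Promoter windows came from RefSeq (GRCm38.p6).

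Members, classes, wider pathway lists and marker lists were chosen with earlier results of these data known. Values in each library are given for members with an adjusted p under 0.05 whose groups do not overlap, and for Lamp1, Ctsd, Mcoln1, Tfeb, Tfe3, Mitf, Sqstm1, Lamtor1, Atp6v1a and Gpnmb. Of each wider list up to 2 of the highest and 2 of the lowest called genes are named. Becn1 was given in full after its values were seen.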

Additional observations from a re-analysis of the deposited data

How the results depend on the processing

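Of the 36 called members, 17 stayed past the threshold in all 19 alternatives and none changed direction, while no member outside the call passed in any alternative. The count of members called higher was 35, and 22 without a mean-variance trend. Leaving out libraries gave 18 to 32, and the count called lower was 1 in every setting run. TMM scaling gave the values of the reported fit, so among the 19 alternatives it adds no check of its own. The replicate numbers are shared by both groups and were not taken as pairs, since the correlation was not above 0.1 for every number: deviations of same-numbered libraries correlated with r = 0.040, 0.040 and 0.207 across 8271 genes, and those of other pairs with -0.154 to 0.125. The replicate 3 libraries correlated best with their own number and the others did not. Across groups r was 0.053 and 0.125 between replicates 1 and 2, and -0.154 to -0.079 between replicate 3 and either of them. A rule by number cannot see such a split. Per the methods a spike-in was added at another step in replicate 1 than in replicates 2 and 3. Shared handling was not tested. With the replicate block limma called 3170 of all genes and 34 of the 36 members. Over all genes limma called 3676, and 1440 without the trend, DESeq2 2183, and limma with libraries left out 1014 to 2813.

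Median log2 fold changes moved by more than the spread between replicates in some settings, and the cause was not tested. Quantile normalization gave 0.4192 for the Rag and FLCN-FNIP class. The filter on low genes, which removes Gpnmb, gave 0.482 for the membrane proteins, and averaging replicates 1 and 2, chosen after seeing the data, gave 0.5763. With libraries left out, medians ran from 0.2902 to 0.4095 for V0, 0.2913 to 0.3429 for V1, 0.3379 to 0.4003 for the Rag and FLCN-FNIP class, 0.553 to 0.6622 for the membrane proteins, 0.4331 to 0.5166 for the hydrolases, 0.1073 to 0.3968 for the MiT/TFE factors and -0.0209 to 0.1703 for the autophagy genes.

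Of the members outside the call, 10 changed sign in at least 1 alternative. Averaging replicates 1 and 2 gave -0.0694 for Lamtor5 and 0.0819 for Wipi1. With libraries left out the log2 fold changes ran from -0.0208 to 0.1469 for Lamtor2, from -0.0855 to 0.0055 for Lamtor3, from -0.0106 to 0.2301 for Lamtor4, from -0.1278 to 0.2477 for Lamtor5, from -0.2661 to 0.0246 for Rragd, from -0.0387 to 0.2758 for Ctsz, from -0.0012 to 0.0976 for Gusb, from -0.0453 to 0.0455 for Sqstm1, from -0.2105 to 0.1362 for Wipi1 and from -0.0209 to 0.2099 for Ulk1. The depth limits Rragd, Gpnmb, Tfeb, Mitf and Becn1, each with at most 35 reads per library, most.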
